A study of Mus musculus with 2 samples.

Results

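The axon guidance ligands and receptors examined here were 59 genes, chosen by name, out of 21887 protein-coding genes of the mouse. They comprised 14 Eph receptors, 8 ephrins, 19 semaphorins, 5 plexins, 7 genes of the netrin group (netrins, Dcc and the Unc5 receptors) and 6 genes of the Slit and Robo families, or 32 ligands and 27 receptors. The question was at which of these genes the chromatin of chondrocytes carries H3K27me3, which is histone H3 with lysine 27 trimethylated by Polycomb repressive complex 2. Newborn CD1 mice of wild type were the source of the chondrocytes, which were released from rib cartilage with collagenase and cultured overnight before chromatin immunoprecipitation (ChIP). One library of precipitated DNA (17237574 filtered tags) and 1 of input DNA, taken before precipitation (17004082 filtered tags), were sequenced, and the groups follow the titles of the libraries. The antibody tags in the labels go against these titles: H3K27me3 is given for the input, and input for the precipitated DNA. How many animals were combined is not given in the sources used here, and with 1 library per group no value has a replicate error and no test between samples was possible.

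Axon guidance genes encode signals that steer growing nerve fibres and many migrating cells. Ephrins are membrane-bound ligands of the Eph receptor tyrosine kinases, semaphorins signal through plexins, netrins through Dcc and Unc5 receptors, and the secreted Slit proteins through Robo receptors. Most of these genes are best known from the nervous system, and several also act in blood vessels and in the developing skeleton. H3K27me3 typically lies over developmental genes that are kept silent in a given cell type, often around promoters rich in CG dinucleotides (CpG). These data hold no expression values, so a peak says only where the mark exceeded the input.

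A gene is called marked where the authors' annotation joined at least 1 peak to it, which requires a peak within 5 kb of the gene record. Chondrocyte identity can be judged from this list only in part: none of 11 cartilage genes, including Col2a1, Acan and Sox9, was marked, and their nearest peaks lay 31.2 to 2126.5 kb away. The upper Wilson limit of this count, 25.9%, lies above the share of all protein-coding genes (20.7%), so it does not set the cartilage genes apart. Positions are on GRCm38, and the gene spans are those of the RefSeq gene table of GRCm38.p6.

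The promoter windows of 5 genes are shown first, for starts under a peak, starts between peaks and the start of an unmarked gene. Marked genes with other peak positions are not among them. Each window runs from 250 bases before to 50 bases after the start of the gene, is taken from RefSeq (GRCm38) and is written 5′ to 3′ on the strand of the gene, with every CpG in capitals. The starts of Sema6d (chr2:124089719-124090018, plus strand) and Robo3 (chr9:37433126-37433425, minus strand) lay under a peak. The start of Efna5 (chr17:62881268-62881567, minus strand), the unmarked gene whose window had the highest ratio of observed to expected CpG, was 312678 bp from the nearest peak. The starts of Sema5b (chr16:35541112-35541411, plus strand) and Epha8 (chr4:136956767-136957066, minus strand) lay in a gap between peaks, with the window 252 and 253 bp from the nearest one, and these were chosen after their values were seen.
Sema6d: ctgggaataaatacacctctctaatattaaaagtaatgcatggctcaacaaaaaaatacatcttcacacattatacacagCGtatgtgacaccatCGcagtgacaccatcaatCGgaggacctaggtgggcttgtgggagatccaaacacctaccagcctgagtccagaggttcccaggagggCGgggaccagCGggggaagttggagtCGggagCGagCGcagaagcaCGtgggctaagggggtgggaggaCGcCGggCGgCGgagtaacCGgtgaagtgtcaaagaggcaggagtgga
Robo3: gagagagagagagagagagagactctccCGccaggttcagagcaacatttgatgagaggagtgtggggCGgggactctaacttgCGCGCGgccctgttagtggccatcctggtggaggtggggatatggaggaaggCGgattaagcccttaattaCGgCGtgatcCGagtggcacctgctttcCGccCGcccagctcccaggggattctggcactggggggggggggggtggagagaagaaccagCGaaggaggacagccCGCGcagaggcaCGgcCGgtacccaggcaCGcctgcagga
Efna5: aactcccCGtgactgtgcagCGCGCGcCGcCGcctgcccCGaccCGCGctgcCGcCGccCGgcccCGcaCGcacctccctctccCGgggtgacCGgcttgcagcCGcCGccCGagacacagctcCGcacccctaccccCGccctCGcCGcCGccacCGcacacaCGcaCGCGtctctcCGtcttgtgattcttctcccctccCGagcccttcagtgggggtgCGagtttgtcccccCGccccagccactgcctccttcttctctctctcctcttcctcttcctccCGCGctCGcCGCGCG
Sema5b: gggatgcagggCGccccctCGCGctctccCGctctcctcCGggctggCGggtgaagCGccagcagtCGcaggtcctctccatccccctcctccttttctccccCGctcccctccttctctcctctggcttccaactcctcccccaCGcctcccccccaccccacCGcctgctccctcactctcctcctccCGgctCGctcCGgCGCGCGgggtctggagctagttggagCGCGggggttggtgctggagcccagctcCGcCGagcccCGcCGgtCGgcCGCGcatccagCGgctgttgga
Epha8: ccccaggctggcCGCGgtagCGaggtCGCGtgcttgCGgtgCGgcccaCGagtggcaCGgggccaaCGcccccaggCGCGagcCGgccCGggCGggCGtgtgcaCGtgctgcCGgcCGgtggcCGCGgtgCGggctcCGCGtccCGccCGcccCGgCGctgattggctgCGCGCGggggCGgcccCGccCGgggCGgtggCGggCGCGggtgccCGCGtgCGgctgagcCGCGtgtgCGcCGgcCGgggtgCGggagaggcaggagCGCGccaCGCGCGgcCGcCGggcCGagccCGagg
These windows differed in composition. The Sema6d window had a GC content of 54.3% and 14 CpG, and the Robo3 window 63.3% and 17 CpG. The Sema5b window had 73.0% GC and 27 CpG. The Epha8 window had 84.3% GC and 56 CpG, and the Efna5 window 73.3% GC and 38 CpG. Efna5 was chosen by its CpG ratio and Epha8 with its values known, so these numbers describe the sequences shown and no position relative to peaks. One other window lay under a peak, that of Slit2, with 68% GC and 30 CpG.

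H3K27me3 was found at 29 of the 59 guidance genes (49.2%, 95% Wilson interval 36.8 to 61.6%), against 20.7% of all protein-coding genes (4535 of 21887). The intervals cover counting error over genes only, and the guidance genes were chosen with earlier results of these data known. A peak overlapped the gene record itself at 24 of the 59 (40.7%, 29.1 to 53.4%), against 14.2% of all protein-coding genes. When the mean q-value of a peak had to be 0.05 or lower, 22 guidance genes (37.3%) remained, against 16.4% of all genes. At 0.01 there were 9 (15.3%, 8.2 to 26.5%), against 5.90%. These 9 genes were Epha8, Epha10, Ephb1, Sema5b, Plxna4, Ntn1, Unc5b, Slit3 and Robo3, and they include members of 5 of the 6 families.

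By the 5 kb rule the share marked was higher by count among receptors than among ligands, with 17 of 27 receptors (63.0%, 44.2 to 78.5%) against 12 of 32 ligands (37.5%, 22.9 to 54.7%). These intervals overlap and the difference was not tested. With a mean q-value of 0.05 or lower the shares were 44.4% and 31.2%. A peak covered the 5′ end of 1 of 27 receptors (3.7%, 0.657 to 18.3%) and 4 of 32 ligands (12.5%, 4.97 to 28.1%). The share of all protein-coding genes by that rule was 4.45%. The order by count was turned there, but these intervals overlap. Of the 4 ligands, Ntn1 and Slit2 were not covered at their RefSeq starts. The families ranged from 83.3% of the Slit and Robo genes (5 of 6, interval 43.6 to 97.0%) to 25% of the ephrins (2 of 8, interval 7.1 to 59.1%). Between these lay the Eph receptors with 9 of 14 (64.3%, 38.8 to 83.7%), the plexins with 3 of 5 (60.0%, 23.1 to 88.2%), the netrin group with 4 of 7 (57.1%, 25 to 84.2%) and the semaphorins with 6 of 19 (31.6%, 15.4 to 54.0%). All 6 intervals overlap one another, so the families cannot be put in order from these counts. Some of the families are not complete in the 59 genes. With the plexins Plxna3, Plxnb2, Plxnb3 and Plxnd1, all unmarked, 3 of 9 plexins were marked (33.3%, 12.1 to 64.6%), and with the unmarked Ntn3 and Ntn5 it was 4 of 9 genes of the netrin group (44.4%, 18.9 to 73.3%). With the unmarked Sema7a it was 6 of 20 semaphorins, and with the marked Robo4 6 of 7 Slit and Robo genes.

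**Figure D1:**
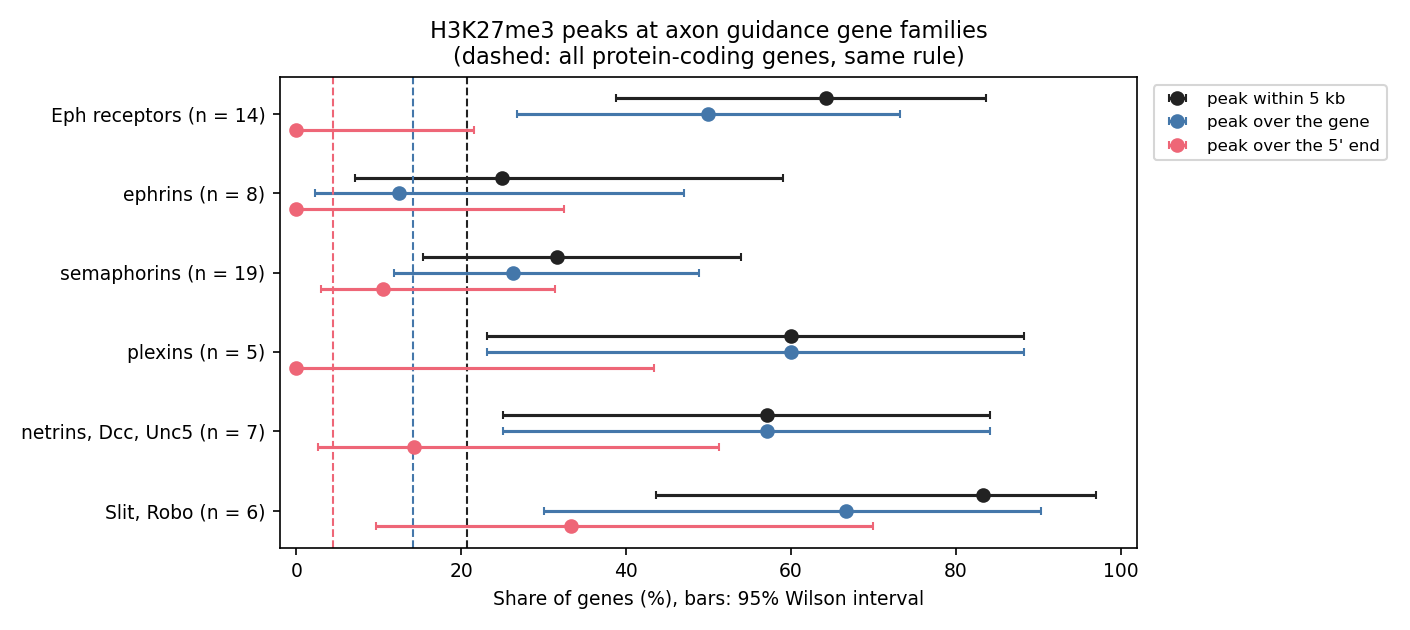
Share of genes with an H3K27me3 peak in each family (x axis, percent; points with 95% Wilson intervals) by 3 rules: a peak within 5 kb, over the gene record, or over its 5′ end; dashed lines give the same share of all protein-coding genes. The points for a peak within 5 kb run from 25% of the ephrins to 83.3% of the Slit and Robo genes, all to the right of the dashed line at 20.7%. For a peak over the record the ephrins (12.5%) lie left of the line at 14.2%, for cover of the 5′ end the Eph receptors, ephrins and plexins lie at 0%, and the wide bars overlap.

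Eph receptors are receptor tyrosine kinases that mediate repulsion and boundary formation between neighbouring cells. Of the EphA receptors 6 of 9 were marked (Epha3, Epha4, Epha5, Epha6, Epha8 and Epha10), and of the EphB receptors 3 of 5 (Ephb1, Ephb2 and Ephb6). Most of the marked sequence in this family lay at Epha8, Ephb1 and Epha10, whose peaks were unlike in shape.

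Epha8 (chromosome 4, 136929419 to 136956859, minus strand) had 6 peaks that summed to 28.4 kb and covered 53.8% of its record. The widest, of 11.7 kb (chr4:136957751-136969411, fold enrichment 3.54, mean q 0.00756), lay upstream of the gene, and a 6.69 kb peak (fold 3.5, q 0.0104) began 302 bp inside it. Epha8 was therefore marked over both sides of its start and along much of a short gene. Epha10 (chromosome 4, 124881530 to 124917801, plus strand) encodes an Eph receptor that is predicted to lack kinase activity. It had 3 peaks summing to 20.8 kb, of which the widest measured 16.5 kb (chr4:124886195-124902669, fold 3.52, q 0.00792) and was also joined to the overlapping transcript 1700125G02Rik. The peaks covered 52.5% of the Epha10 record, a share close to that of Epha8.

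Ephb1 (chromosome 9, 101922128 to 102354693, minus strand), a receptor of B-class ephrins, had 15 peaks that summed to 27.8 kb. In contrast to Epha8 and Epha10, they covered only 5.87% of its 432.6 kb record. The widest, of 7.10 kb (fold 3.49, q 0.0105), began 1492 bp inside the gene, and the narrowest was 0.354 kb. The highest fold of this gene (3.51, q 0.00710) belonged to a 4.10 kb peak that began 88425 bp inside it.

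Epha4, which binds both classes of ephrins, had 3 peaks (9.10 kb), the widest of 5.92 kb upstream with a fold of 3.49 and a q of 0.0104. Epha3 and Epha5, receptors of A-class ephrins, had 2 peaks each, summing to 3.11 and 3.84 kb, with folds of 3.11 to 3.21. Epha6, a long gene with a record of 952 kb, had a single peak of 0.489 kb (fold 2.96, q 0.0988) that lay 928758 bp from the 5′ end, towards the far end of the gene. Its pileup (ChIP fragments stacked over the peak, on average) was 9.86, the lowest in the whole list. Ephb2 and Ephb6 were marked only in the flank. The Ephb2 peak (0.510 kb, fold 3.17, q 0.0348) lay 2416 bp upstream, and the Ephb6 peak (0.791 kb, fold 2.96, q 0.0988) lay 4243 bp upstream and was also at the lowest pileup. Thus among the EphB receptors the gene record itself was overlapped at Ephb1 alone. Epha1, Epha2, Epha7, Ephb3 and Ephb4 were unmarked.

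Ephrins, the ligands of these receptors, were marked at Efna3 and Efna4 (2 of 5 A-class ephrins, which are held by a lipid anchor) and at none of the 3 B-class ephrins, which span the membrane. The Efna3 peak (3.53 kb, fold 3.28, q 0.0229) lay inside the gene (chromosome 3, 89313899 to 89322939) and covered 38.9% of the record. The Efna4 peak (0.465 kb, fold 3.04, q 0.0682) lay 3541 bp downstream of the gene. Efna1, Efna2, Efna5, Efnb1, Efnb2 and Efnb3 were unmarked, so that Efna3 was the one ephrin with a peak over its record.

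Semaphorins are secreted or membrane-bound guidance signals. Of the secreted class 3 semaphorins 1 of 7 was marked (Sema3f), of class 4 2 of 6 (Sema4d and Sema4f), of class 5 1 of 2 (Sema5b) and of class 6 2 of 4 (Sema6b and Sema6d). Sema5b, a transmembrane semaphorin with thrombospondin repeats, carried the peak of highest fold enrichment among all 132 peaks at guidance genes. This 8.25 kb peak (chr16:35532051-35540297, fold 3.72, q 0.00250, pileup 14.06) lay upstream of the gene (chromosome 16, 35541154 to 35664261, plus strand), and a 7.83 kb peak (fold 3.34, q 0.00739) began 517 bp inside it. Altogether Sema5b had 8 peaks (23.6 kb), and of the 6 others the widest was 4.45 kb.

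Sema6b, a transmembrane semaphorin, had 2 peaks of 17.5 kb in sum. The wider, of 12.9 kb (chr17:56141016-56153904, fold 3.35, q 0.0152), ended 673 bp upstream of the gene and was the widest of the family. The other (4.57 kb, fold 3.17, q 0.0255) overlapped the 3′ end and was joined to Lrg1 and Plin5 as well. Only 0.371% of the Sema6b record was covered, so nearly all of its mark lay outside the gene.

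Sema6d and Sema4d differed from the other semaphorins in that a peak lay over the 5′ end. At Sema6d, a ligand of class A plexins, this peak was 5.92 kb wide (chr2:124087140-124093060, fold 3.23, q 0.0333), and a second peak of 3.16 kb lay just inside the gene. At Sema4d, a ligand of B plexins, a single 2.34 kb peak (chr13:51792069-51794409, fold 3.20, q 0.0374) covered the start. Sema3f had 1 peak of 2.14 kb (fold 3.16, q 0.0394) that began 1197 bp inside the gene, and Sema4f 1 peak of 0.718 kb (fold 2.94, q 0.0781) that ended 387 bp upstream of it. The 13 unmarked semaphorins were Sema3a, Sema3b, Sema3c, Sema3d, Sema3e, Sema3g, Sema4a, Sema4b, Sema4c, Sema4g, Sema5a, Sema6a and Sema6c.

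Plexins, the receptors of semaphorins, were marked at Plxna2, Plxna4 and Plxnc1 and unmarked at Plxna1 and Plxnb1. The 4 plexins outside the 59 genes were unmarked as well, with nearest peaks at 5.12 kb (Plxnb2), 122 kb (Plxnb3), 202 kb (Plxna3) and 204 kb (Plxnd1). All 3 marked plexins had peaks inside the gene. Plxnc1, a receptor of the membrane-anchored Sema7a, had 3 peaks summing to 5.95 kb, the widest of 2.83 kb with a fold of 3.39 and a q of 0.0170. Plxna4 had 3 peaks summing to 5.15 kb. Its widest (3.16 kb, fold 3.17, q 0.0404) began 2763 bp inside the gene and the next (1.56 kb, fold 3.51, q 0.00919) 7261 bp inside. Plxna2 had a single peak of 0.294 kb (fold 3.06, q 0.0686), which equals the modelled fragment length of 294 bp and is the smallest width in the list.

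In the netrin group, Ntn1 stood out by the amount of marked sequence. Netrin 1 is a secreted, laminin-related ligand that attracts or repels depending on the receptor. Ntn1 (chromosome 11, minus strand) had 18 peaks of 48.0 kb in sum over 21.9% of its 191.5 kb record, including the widest peak of all guidance genes. This 19.0 kb peak (chr11:68388036-68407008, fold 3.37, q 0.0118) covered the 5′ end of the record. The RefSeq span of Ntn1 (68209364 to 68386826) is shorter at this end, so the peak would lie just upstream of the RefSeq start. Of the other 17 peaks the widest was 6.56 kb, and the highest fold was 3.60 (q 0.00733) at a 0.547 kb peak.

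Unc5 receptors mediate the repulsive response to netrins, and 3 of 4 were marked. Unc5a had 6 peaks that summed to 11.6 kb and together covered 18% of its record, the widest of 5.21 kb (fold 3.21, q 0.0292). Unc5d had 2 peaks (5.16 kb in sum, folds 3.11 and 3.20) and Unc5b had 3 (3.42 kb in sum), of which the one of 1.09 kb inside the gene reached a fold of 3.58 and a q of 0.00797. At each of these genes the peaks nearest the start of the record lay on both sides of it. Ntn4, Unc5c and Dcc, the receptor for attraction to netrin 1, were unmarked.

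All 3 Slit genes were marked. Slit1 (chromosome 19, 41597824 to 41747275, minus strand) had the largest summed width of all guidance genes, 59.8 kb in 15 peaks that covered 39.9% of its record. The widest was 10.1 kb (chr19:41732785-41742840, fold 3.45, q 0.0126) and began 825 bp inside the gene. Slit3 (chromosome 11, 35121456 to 35708507, plus strand) had the most peaks, 21, with 39.2 kb in sum over 6.67% of its 587.3 kb record. Its peaks were narrower than those of Slit1, with a median width of 1.30 against 3.55 kb, a widest peak of 5.50 kb (fold 3.33, q 0.0230) and a highest fold of 3.70 (q 0.00516) at a 0.555 kb peak. Slit2 had 5 peaks (9.80 kb), and its widest (5.50 kb, chr5:47982536-47988038, fold 3.25, q 0.0261) covered the 5′ end of the record. The mark on the Slit genes therefore took 3 forms: many wide peaks at Slit1, many narrower ones inside Slit3, and a cluster near the start of Slit2. The Slit3 peaks lay 1103 to 425977 bp from its start, many of them between 127986 and 202190 bp.

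Robo receptors were marked at Robo2 and Robo3. Robo3 (chromosome 9, 37416045 to 37433436, minus strand), a divergent Robo known from axons that cross the midline, carried a 15.7 kb peak (chr9:37425945-37441613, fold 3.54, q 0.00759) over its start, and its peaks covered 45.1% of the record. A second peak inside the gene was 0.672 kb wide. Another, of 1.21 kb (fold 2.98, q 0.0922), lay 2419 bp beyond the 3′ end and was also joined to the neighbouring Robo4. Robo2 had a single peak of 1.27 kb (fold 3.06, q 0.0690) 1910 bp upstream of its record of 519.5 kb, and this peak falls inside the longer gene that the RefSeq table gives (73891976 to 75447443 on chromosome 16). Robo1 was unmarked.

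**Figure D2:**
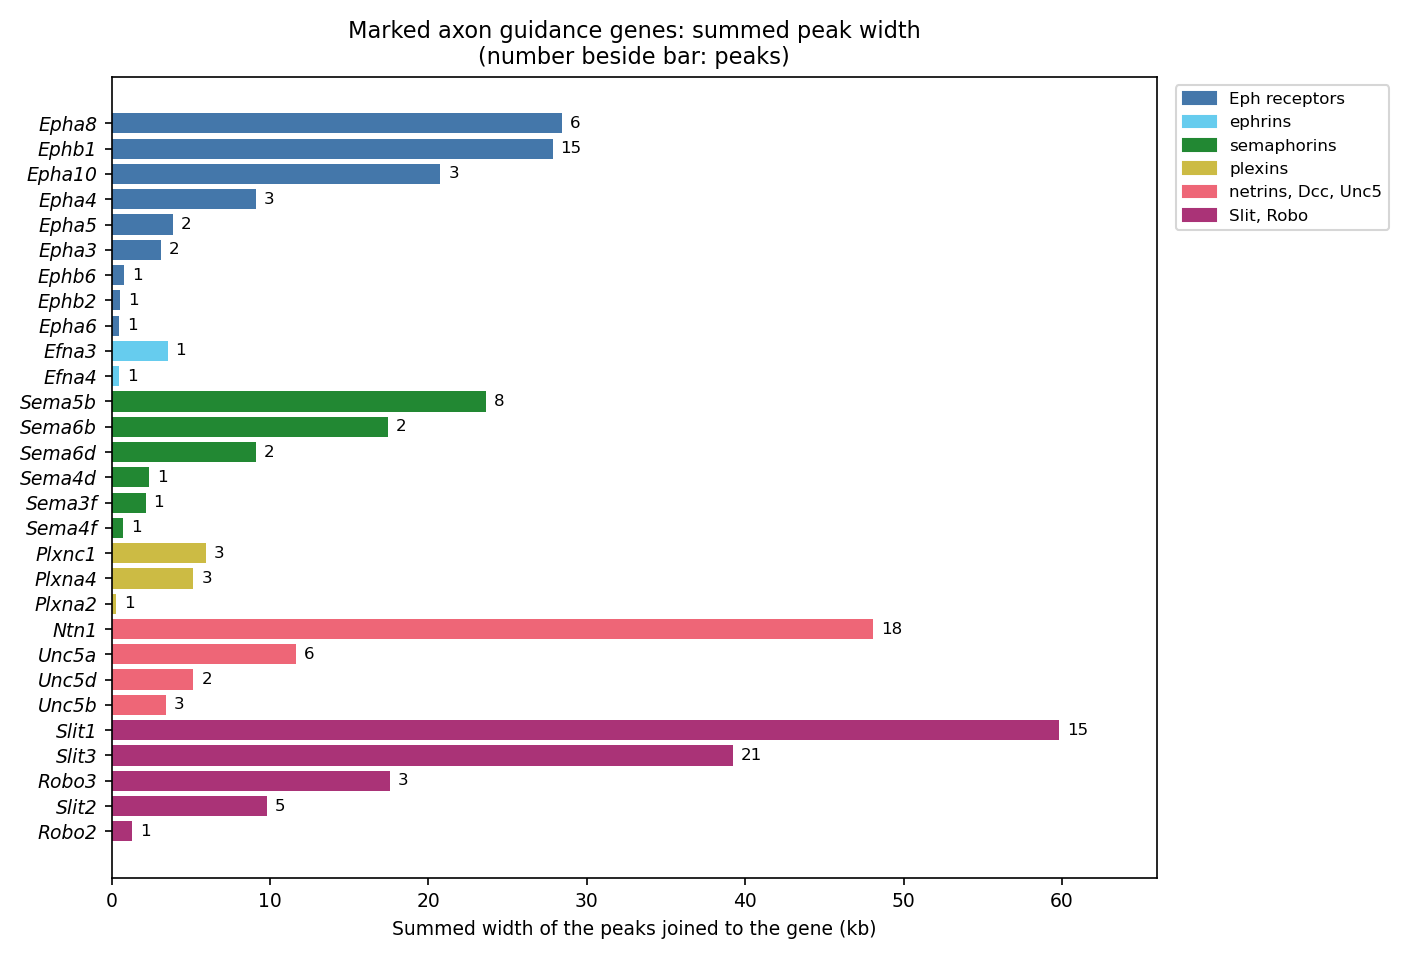
Summed width in kb of the H3K27me3 peaks joined to each of the 29 marked guidance genes (bars, coloured by family), with the number of peaks beside each bar. Slit1 (59.8 kb), Ntn1 (48.0 kb) and Slit3 (39.2 kb) have the longest bars, whereas Plxna2 has 0.294 kb.

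The number of peaks per gene was uneven. Ephb1, Ntn1, Slit1 and Slit3 had 10 or more peaks (4 of 59, 6.8%), against 0.539% of all protein-coding genes, and these 4 genes held 69 of the 132 peaks (52.3%). All 4 are genes of 100 kb or more. Among marked genes of that length, 10 or more peaks were found at 4 of 18 guidance genes (22.2%, 9.0 to 45.2%) and at 91 of 826 protein-coding genes (11.0%, 9.06 to 13.3%), so that the intervals overlap. A peak of at least 10 kb was joined to 6 guidance genes (10.2%, 4.74 to 20.5%), against 2.63% of all protein-coding genes. These were Epha8, Epha10, Sema6b, Ntn1, Slit1 and Robo3. By peak, 6 of the 132 were this wide, against 503 of the 9800 peaks joined to any protein-coding gene. One peak alone was found at 10 of the 29 marked guidance genes (34.5%), against 48.2% of all marked genes, and the median summed width was 5.16 kb against 3.75 kb. The median number of peaks per marked gene was 2 in both sets.

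The individual peaks resembled those at other genes in median width and fold enrichment, but a smaller share had a mean q-value of 0.01 or lower. The 132 peaks had a median width of 1.66 kb (quartiles 0.697 and 3.16 kb), against 1.43 kb (0.787 and 3.07 kb) for the 9800 peaks joined to any protein-coding gene. The median fold enrichment was 3.17 (quartiles 3.05 and 3.31, range 2.86 to 3.72) against 3.18 (3.05 and 3.36). The mean q-value was 0.05 or lower for 83 peaks (62.9%), against 64.8%, and 0.01 or lower for 11 (8.33%), against 13.9%. By family the median width was 2.34 kb at semaphorins (15 peaks), 1.85 kb at Eph receptors (34 peaks), 1.70 kb at Slit and Robo genes (45 peaks), 1.56 kb at plexins (7 peaks) and 1.29 kb in the netrin group (29 peaks). The family medians of fold enrichment lay between 3.16 and 3.20. The median fold enrichments of guidance genes and of all genes thus lay close together.

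Most of the peaks lay inside genes. Of the 132, 105 (79.5%) lay entirely inside the record, 18 (13.6%) upstream, 5 over the 5′ end, 3 downstream and 1 over the 3′ end. For all 11089 pairs of a peak and a protein-coding gene, 55.6% lay inside and 20.7% upstream. The genes with the most peaks, Ephb1, Ntn1, Slit1 and Slit3, supplied 65 of the 105, and without them 40 of 63 (63.5%) lay inside. At genes of 100 kb or more the shares were 85.6% (89 of 104) for guidance genes and 82.0% for all protein-coding genes, so the share inside was close to that of other long genes.

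The 5′ end itself was covered at 5 guidance genes (8.5%, 3.7 to 18.4%), against 4.45% of all protein-coding genes. They were Sema4d, Sema6d, Ntn1, Slit2 and Robo3, that is 4 ligands and 1 receptor. Among marked genes only, the share was 17.2% (5 of 29) for guidance genes and 21.5% for all (975 of 4535). None of the 14 Eph receptors, 8 ephrins or 5 plexins had a covered 5′ end. When the start was taken from the RefSeq gene table, the count was 3 (Sema4d, Sema6d and Robo3). That table starts Ntn1 and Slit2 at other positions than their records, outside the peak, although the one promoter window of Slit2 lies under it.

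A more frequent arrangement was a pair of peaks on either side of an uncovered 5′ end, each within 5 kb of it. This was found at 12 guidance genes (20.3%, 12.0 to 32.3%), against 3.63% of all protein-coding genes. When both peaks had to lie within 2 kb of the 5′ end, it was 7 (11.9%, 5.87 to 22.5%), against 2.40%. Among marked genes it was 12 of 29 (41.4%, 25.5 to 59.3%) against 17.5% (794 of 4535). Among marked genes of 100 kb or more it was 8 of 18 (44.4%, 24.6 to 66.3%) against 24.7% (204 of 826, 21.9 to 27.8%), where the intervals overlap. The 12 genes were Epha3, Epha4, Epha5, Epha8, Epha10, Ephb1, Sema5b, Plxnc1, Unc5a, Unc5b, Unc5d and Slit1. They comprised 10 of 27 receptors (37.0%, 21.5 to 55.8%) and 2 of 32 ligands (6.2%), and within families 6 of 14 Eph receptors and 3 of 7 genes of the netrin group. At 2 kb it was 5 of 27 receptors (18.5%, 8.18 to 36.7%) and 2 of 32 ligands (1.73 to 20.1%), with overlapping intervals, and 2 of 14 Eph receptors (Epha8 and Epha10). With RefSeq starts the count was also 12, with Ntn1 in place of Unc5a, whose RefSeq start (54945151) precedes all its peaks. The RefSeq start of Slit1 (41747275) lies between its 2 upstream peaks, so the uncovered stretch there is another one.

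Measured at the starts of the gene records, the uncovered stretch had a median length of 2.14 kb. It was shortest at Slit1 (1.177 kb), Epha8 (1.24 kb), Sema5b (1.36 kb), Unc5a (1.47 kb) and Epha10 (1.68 kb). It was intermediate at Unc5d (2.03 kb) and Plxnc1 (2.26 kb), and longest at Epha4 (4.51 kb), Epha3 (5.15 kb), Epha5 (5.18 kb), Ephb1 (5.39 kb) and Unc5b (6.28 kb). The gap at Slit1 equals the smallest gap between any 2 peaks of the whole list, 1177 bp. The list therefore holds no shorter gap, and whether coverage dropped over still shorter stretches under a wide peak cannot be read from it. The fold enrichments on both sides were compared within each gene. At Slit1 they were 3.45 upstream and 3.45 inside, at Epha8 3.54 and 3.5, at Plxnc1 3.25 and 3.39, and at Epha5 3.11 and 3.12. At Unc5b they differed most, with 3.0 upstream and 3.58 inside, followed by Sema5b with 3.72 and 3.34.

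The base composition of the starts was compared over the RefSeq promoter windows, which were found for 49 of the 59 genes (64 windows) and 17486 protein-coding genes (21255 windows). No window was at hand for Efnb3, Sema3b, Sema3f, Sema6a, Plxna1, Plxna4, Ntn1, Dcc, Unc5d and Slit1. The ratio of observed to expected CpG, for which the expectation comes from the C and G content of the window, had a median of 0.665 over the guidance windows and 0.567 over all windows. A ratio of at least 0.6 was reached by 60.9% of guidance windows and 47.7% of all windows. The median GC content was 64.2% against 56.3%. At genes with the start between peaks the median ratio was 0.772 (10 windows, 0.565 to 1.06), at starts under a peak 0.659 (3 windows), at other marked genes 0.618 (14 windows) and at unmarked genes 0.665 (33 windows). A further 4 windows (median 0.143, 0.101 to 0.369) belong to Sema4d and Sema6d, whose 5′ end was covered, but lie at other starts of these genes, 35136 to 112275 bp from the nearest peak. Over all protein-coding genes the corresponding medians were 0.643 for windows between peaks (722 windows) and 0.545 for windows under a peak (835 windows). In both sets the windows between peaks had the higher median, but the 3 guidance windows under a peak (0.60 to 0.90) lay within the range of those between peaks. At Epha10 the RefSeq start lies further into the gene than the record's, so that its window touches the inner peak.

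The motif GGGCGG, the core of the GC box, was found on either strand in 70.3% of the guidance windows and 46.2% of all windows. The motif TATAAA was found in 3.12% and 12.6%. No search was made for overlaps between these motifs, and a match of letters does not show binding. Of the sequences printed above, those of Sema6d, Robo3, Efna5 and Epha8 hold GGGCGG on at least 1 strand and that of Sema5b does not, and none holds TATAAA.

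**Figure D3:**
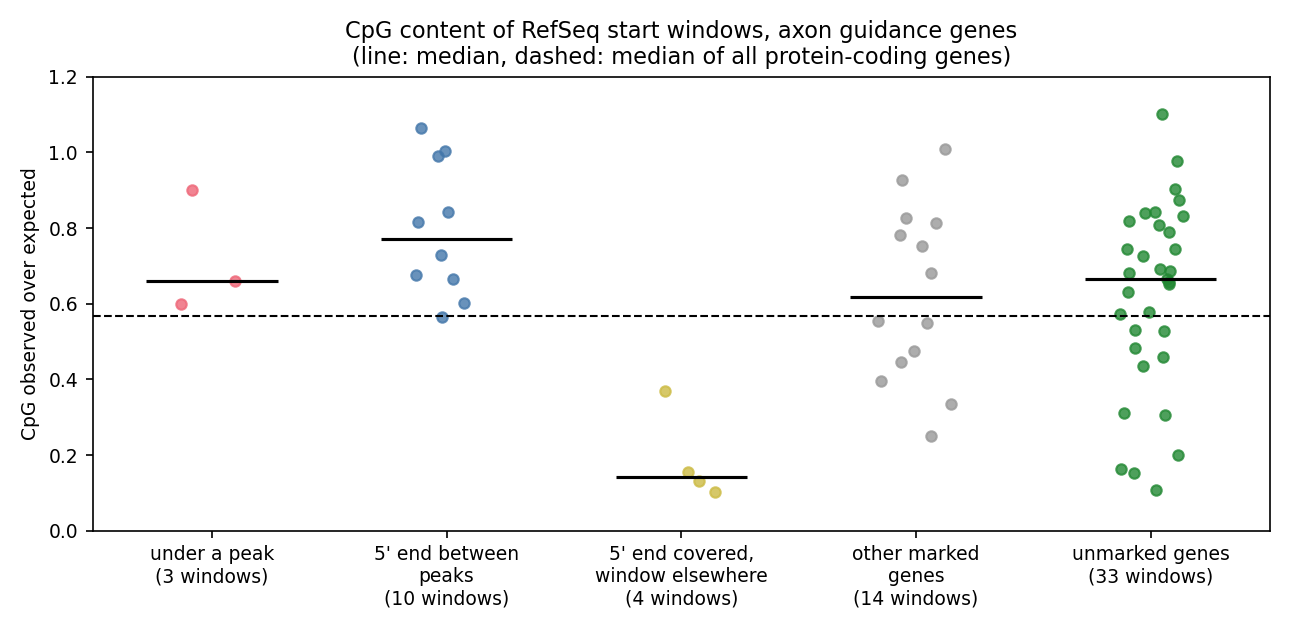
Observed over expected CpG ratio of RefSeq promoter windows of guidance genes (points, 1 per window), grouped by where the peaks lie, with group medians as lines and the median of all protein-coding genes dashed. Medians are 0.772 for starts between peaks, 0.618 for other marked genes and 0.665 for unmarked genes, with broad overlap, and 0.143 for the 4 windows of Sema4d and Sema6d away from the covered end.

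Length gives a gene more room for a peak, and guidance genes are long, with a median of 104.9 kb against 17.2 kb for all protein-coding genes. Among genes of 100 kb or more, 18 of 30 guidance genes were marked (60.0%, 42.3 to 75.4%), against 34.0% of all genes in the class. For genes of 30 to 100 kb it was 3 of 6 (50%, 18.8 to 81.2%) against 22.3%, and for genes under 30 kb 8 of 23 (34.8%, 18.8 to 55.1%) against 17.9%. In each class the guidance genes had the higher share by count. A peak over the gene record was found at 16 of 30 in the longest class against 28.9% of all genes, at 3 of 6 in the middle class against 16.3%, and at 5 of 23 in the shortest against 11.0%. The marked guidance genes had a median length of 149.5 kb and the unmarked 34.0 kb. The families differ in length as well, with medians of 9.88 kb for ephrins, 39.8 kb for semaphorins, 92.1 kb for Eph receptors, 154 kb for plexins, 177 kb for the netrin group and 457 kb for Slit and Robo genes. The shares marked followed this order at both ends but not in the middle, where the Eph receptors (64.3%) had a higher share than the longer plexins (60.0%) and netrin group (57.1%). The part of gene length in the differences between families was not tested.

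**Figure D4:**
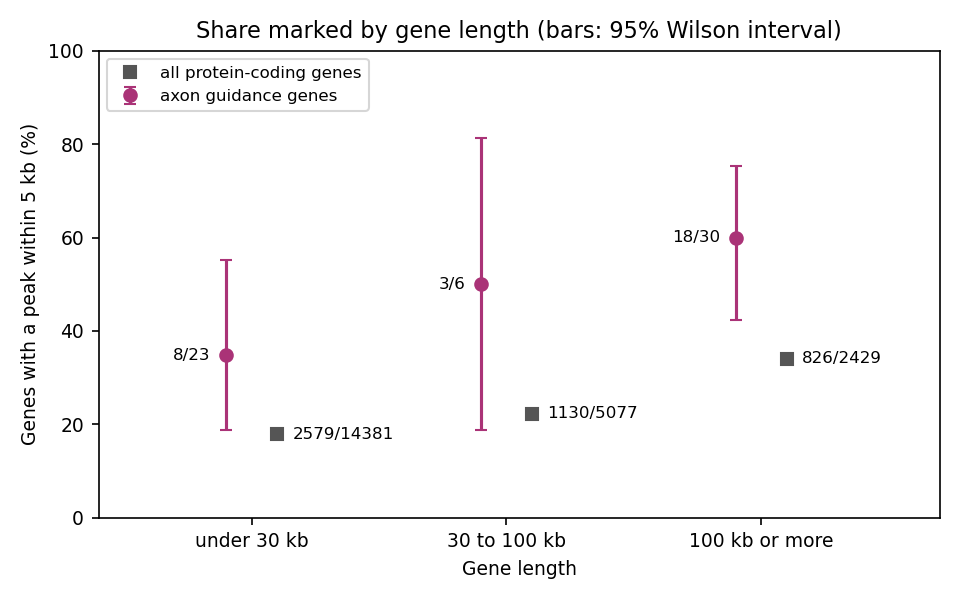
Share of genes with an H3K27me3 peak within 5 kb (y axis, percent) in 3 classes of gene length, for guidance genes (with 95% Wilson intervals) and all protein-coding genes. The share of guidance genes is 34.8%, 50% and 60.0% from the shortest to the longest class, and that of all genes 17.9%, 22.3% and 34.0%.

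The 30 unmarked guidance genes were mostly far from any peak. The median distance to the nearest peak was 199 kb, 19 genes were more than 100 kb away and 3 lay within 20 kb. The nearest were Sema6c (7.74 kb), Ntn4 (9.25 kb) and Efna1 (13.2 kb), so no unmarked guidance gene came close to the 5 kb limit. On the other side of that limit Ephb6 (4243 bp) and Efna4 (3541 bp) had the most distant peaks of the marked genes with a peak in the flank only.

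The most isolated genes were 4 secreted semaphorins on chromosome 5, Sema3e (4300 kb), Sema3a (3399 kb), Sema3d (2658 kb) and Sema3c (2180 kb), together with Epha7 on chromosome 4 (2599 kb). Sema6a and Dcc, both on chromosome 18, were 929 and 839 kb from a peak, Efnb1 on the X chromosome 675 kb, Unc5c 627 kb, Ephb3 434 kb, Epha2 401 kb, Sema4b 375 kb and Robo1 306 kb. Efnb3 (226 kb), Plxnb1 (214 kb), Sema5a (183 kb), Sema4a and Sema4c (182 kb each) and Efna2 (108 kb) followed. The remainder were Sema3g (97.4 kb), Sema3b (67.5 kb), Ephb4 (56.7 kb), Efnb2 (52.1 kb), Plxna1 (45.8 kb), Sema4g (34.8 kb), Efna5 (34.4 kb) and Epha1 (30.4 kb). Related genes could thus lie on opposite sides of the call. Slit2, a ligand of Robo1, was marked at the start of its record whereas Robo1 was unmarked. Ntn1 carried the widest peak whereas its receptor Dcc had none within 839 kb. Other receptors of these groups were marked, namely Robo2, Robo3, Unc5a, Unc5b and Unc5d.

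Other guidance genes and intracellular effectors were examined as related lists. Of 26 further guidance ligands, receptors and adhesion molecules 10 were marked (38.5%, 22.4 to 57.5%), each with a peak over the gene record. They were Nrp1, Ntng1, Ntng2, Robo4, Draxin, Dscam, Dscaml1, Nrcam, Cntn1 and Cntn2. The largest sums were at the adhesion molecules Dscaml1 (17 peaks, 26.3 kb), Dscam (10 peaks, 15.2 kb) and Cntn2 (2 peaks, 11.2 kb), and a peak covered the 5′ end of Draxin and Cntn2. Of 45 intracellular effectors 10 were marked (22.2%, 12.5 to 36.3%), against 20.7% of all genes. They included Dpysl4, Dpysl5, Crmp1, Mical2, Chn1, Rnd1 and Rgs3, with the largest sums at Crmp1 (5 peaks, 16 kb), a collapsin response mediator, Chn1 (5.99 kb), a Rac GTPase-activating protein, and Dpysl5 (5.77 kb), a relative of Crmp1. The widely used effectors Rac1, Rhoa, Cdc42, Rock1 and Rock2 were among those without a peak. The interval of the effectors lay below that of the 59 guidance genes (36.8 to 61.6%) but overlapped that of the 26 further guidance genes. The separation depended on the rule. With a mean q-value of 0.05 or lower, 22 of 59 (26.1 to 50%) stood against 8 of 45 effectors (17.8%, 9.29 to 31.3%), with overlap. By this rule 9 of 26 further guidance genes (34.6%) and 16.4% of all protein-coding genes were marked. With genes placed by the RefSeq table, 13 of 45 effectors (28.9%, 17.7 to 43.4%) had a peak within 5 kb, against 29 of 59 guidance genes, 10 of 26 further guidance genes and 22.0% of all protein-coding genes, again with overlap. The added effectors were Dpysl2, Mical3 and Pak1, to which the authors' annotation joined no peak. Neither gene length nor other properties of these lists were matched.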

How the data were processed

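H3K27me3 ChIP DNA and input DNA of wild-type primary rib chondrocytes (1 library each, 17237574 and 17004082 filtered tags) were compared by the authors with MACS 2.1.0.20140616 in broad mode. Per the file headers the q-value cutoff was 0.05, the fragment length 294 bp and the effective genome size 1.87 Gb. The submitters' processing notes name CASAVA 1.8.4, Bowtie2, MACS2 and mm10. The deposited pileup is a coverage signal per peak, the deposited fold enrichment a ratio to the input background after adding 1 to both, and the deposited p-values and q-values are −log10 means over each peak, so a mean q can exceed the cutoff. The authors' annotation joins peaks to Ensembl gene records within 5 kb. No peak below a pileup of 9.86 was called, which limits the detection of weaker marking.

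All 19359 peaks had identical values in both deposited tables. Of 4987 symbols joined to a peak, 4929 matched the RefSeq gene table of GRCm38.p6, as did all 59 guidance genes, and for 27 of the 29 marked ones the record length was within 10% of that table. The exceptions were Robo2 and Sema4d. That table holds no exons, so peaks were placed relative to gene ends only. Counts, medians and 95% Wilson intervals were computed in Python 3.11.15 with pandas 2.3.3 and scipy 1.17.1, and the steps were checked on simulated data. No test was run, because there was 1 library per group. The guidance genes and the related lists were chosen with earlier results of these data known. Every guidance gene is named with its call. Peak values are given in each family for the 3 genes of largest summed width, the gene with the widest peak, genes with a covered 5′ end and genes marked in the flank only. The peak values of Epha3, Epha4, Epha5, Epha6, Sema3f and Unc5b, the fold enrichments on both sides of uncovered starts, and the genes singled out from the related lists by role, were added after the values were seen. Not every marked effector is reported here by name. Stricter q-value, fold and width thresholds, other overlap rules and other gene positions were tried as alternatives.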

Additional observations from a re-analysis of the deposited data

How the results depend on the processing

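Of 101 alternative values for 15 results, 59 stayed within set limits and 42 moved. The order of receptors and ligands by count turned under cover of the 5′ end, where their intervals overlap. The limits were 1.5 times either way for a count and the 95% interval of the reported value for a share or median, so a share over few genes can fall far and stay within them. With the mean q-value limited to 0.01 and with fold enrichment limited to 3.5 or more alike, 9 guidance genes were marked, with shares of 21.4% for Eph receptors, 0% for ephrins, 5.26% for semaphorins, 20% for plexins, 28.6% for the netrin group (within its limits), 33.3% for Slit and Robo genes, 9.38% for ligands and 22.2% for receptors. Under both settings 1 guidance gene kept a covered 5′ end, 2 other guidance genes and 0 effectors were marked, the median width was 4.10 kb and the median fold 3.54. When only cover of the 5′ end counted, 5 guidance genes were marked, with 0% of Eph receptors, ephrins and plexins, 10.5% of semaphorins, 14.3% of the netrin group, 33.3% of Slit and Robo genes, 12.5% of ligands and 3.70% of receptors. With RefSeq start sites 3 genes had a covered 5′ end. The median width was 2.46 kb (median fold 3.29) for peaks whose mean q-value was 0.05 or lower, 2.66 kb (3.24) for peaks of at least 1 kb, and 2.40 kb after peaks within 5 kb were joined. Starts between peaks numbered 7 with peaks within 2 kb, a setting chosen after seeing the data, as were 2 others for this count and the RefSeq gene positions for the further guidance genes and the effectors. Fewer peaks enter under each stricter threshold by construction. No paired analysis was possible because there was 1 library in each group, and for the same reason no library could be left out.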
